A study of Neotoma stephensi and Rattus norvegicus with 6 samples.

Results

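Striated muscle genes, whose products build and run the sarcomeres of skeletal muscle and heart, were examined in the foregut of lab rats (Rattus norvegicus, the outbred Sprague Dawley strain) and of a wild woodrat, Neotoma stephensi. The 45 genes were taken by symbol from a fixed list that holds Mybpc1 and the usual sarcomere, calcium handling, energy and muscle transcription factor genes. Of these, 40 had a row among the 15481 mouse genes of the count files, and Myh7, Myh8, Cacng1, Myoz1 and Myod1 were not analysed here. Each library came from the nonglandular fornix ventricularis of 1 female, with 3 animals of each species. The woodrats were caught in the wild and fed juniper foliage, whereas the lab rats were purchased and kept on chow, so species, diet and housing cannot be told apart. The labels call every animal a virgin female, which for the wild-caught animals the study's methods leave unknown. The question asked of the list was whether other skeletal or cardiac muscle transcripts accompanied Mybpc1, which differed strongly between the species.

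A sarcomere is the contractile unit of striated muscle, in which thick filaments of myosin slide along thin filaments of actin, tropomyosin and troponin between Z-discs. Contraction starts when calcium leaves the sarcoplasmic reticulum and binds troponin C. Smooth muscle, which forms the muscle coats of the stomach, has no sarcomeres and no troponin, and contracts through its own myosin, encoded by Myh11, and the kinase Mylk. Fast, slow, cardiac and developmental fibres use different isoforms of most of these proteins, so the isoforms read in a tissue describe which kind of muscle gene is transcribed there.

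The libraries held between 5439642 and 7932637 counted reads. Counts are given as reads or, scaled to library size with trimmed mean of M-values (TMM) factors, as CPM, and 3 reads, taken as the detection floor, corresponded to between 0.355 and 0.585 CPM. Each value has the precision of its reads, and floors and intervals cover counting error only. Every gene in the files had woodrat reads, whereas 809 had none in lab rats, so a striated gene read only in lab rats would not be seen here. Both species were counted on mouse coding transcripts, and an effect of unequal divergence from mouse on the counts of single genes was not tested. The tissue label was examined with marker genes. The squamous epithelium genes summed to 13666, 28860 and 35123 CPM in woodrats 1, 2 and 3. In lab rats 1, 2 and 3 they summed to 10075, 11971 and 15394 CPM. These genes were Krt5, Krt14, Krt4, Krt13, Trp63, Dsg3 and Dsc3, of which Krt4 and Krt13 had higher means in woodrats. The keratins Krt1 and Krt10, not on this list, went the other way. Krt1 had mean CPM of 5591 in woodrats against 31637 in lab rats, and Krt10 had 6972 against 33941. The sum therefore does not measure which species held more epithelium. The 7 gastric gland genes in the files (of 10 listed) summed to between 7.31 and 11.1 CPM over the 6 animals.

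The striated genes did not move together. At a false discovery rate (FDR) below 0.01 in the edgeR quasi-likelihood test, 4 of them (Myom1, Myom2, Tnni2 and Ckm) were higher in woodrats and 5 (Mybpc1, Mybpc2, Myl2, Trdn and Pvalb) were higher in lab rats. Of all 12603 genes tested, 10.3% were called higher in woodrats and 9.71% higher in lab rats, or 20% in either direction. Only 21 of the 40 genes had at least 1 CPM in at least 3 animals and were tested, and 12 of these 21 were not called. Of the 21, 11 were above this minimum in all 6 animals and 4 passed in another combination. In lab rats only, 5 passed (Mybpc1, Myl2, Trdn, Myh4 and Tnnc2), and in woodrats only, 1 passed (Myom2). A gene that passed in 1 species only had to differ, so these counts describe the genes and do not support a direction. The median log2 fold change of the 21 genes (woodrat over lab rat) was 0.27, against 0.03 over all genes tested. Among the 21, every woodrat lay above every lab rat in 8 genes and every lab rat above every woodrat in 8, against 28.8% and 27.4% of all genes tested. By fibre type, 9 genes of fast fibres were tested, of which 1 was called higher in woodrats and 2 in lab rats, and of 4 genes of slow or cardiac fibres 1 was called, higher in lab rats.

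At least 3 reads were found in all 6 animals for 13 of the 40 genes. In 13 further genes all 3 lab rats but not all 3 woodrats reached 3 reads, and in 4 genes (Myom2, Myot, Smpx and Klhl41) the reverse held. Cacna1s, Ckmt2 and Myog stayed under 3 reads in every animal. The plot of every gene by animal shows these levels against the floor.

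**Figure D1:**
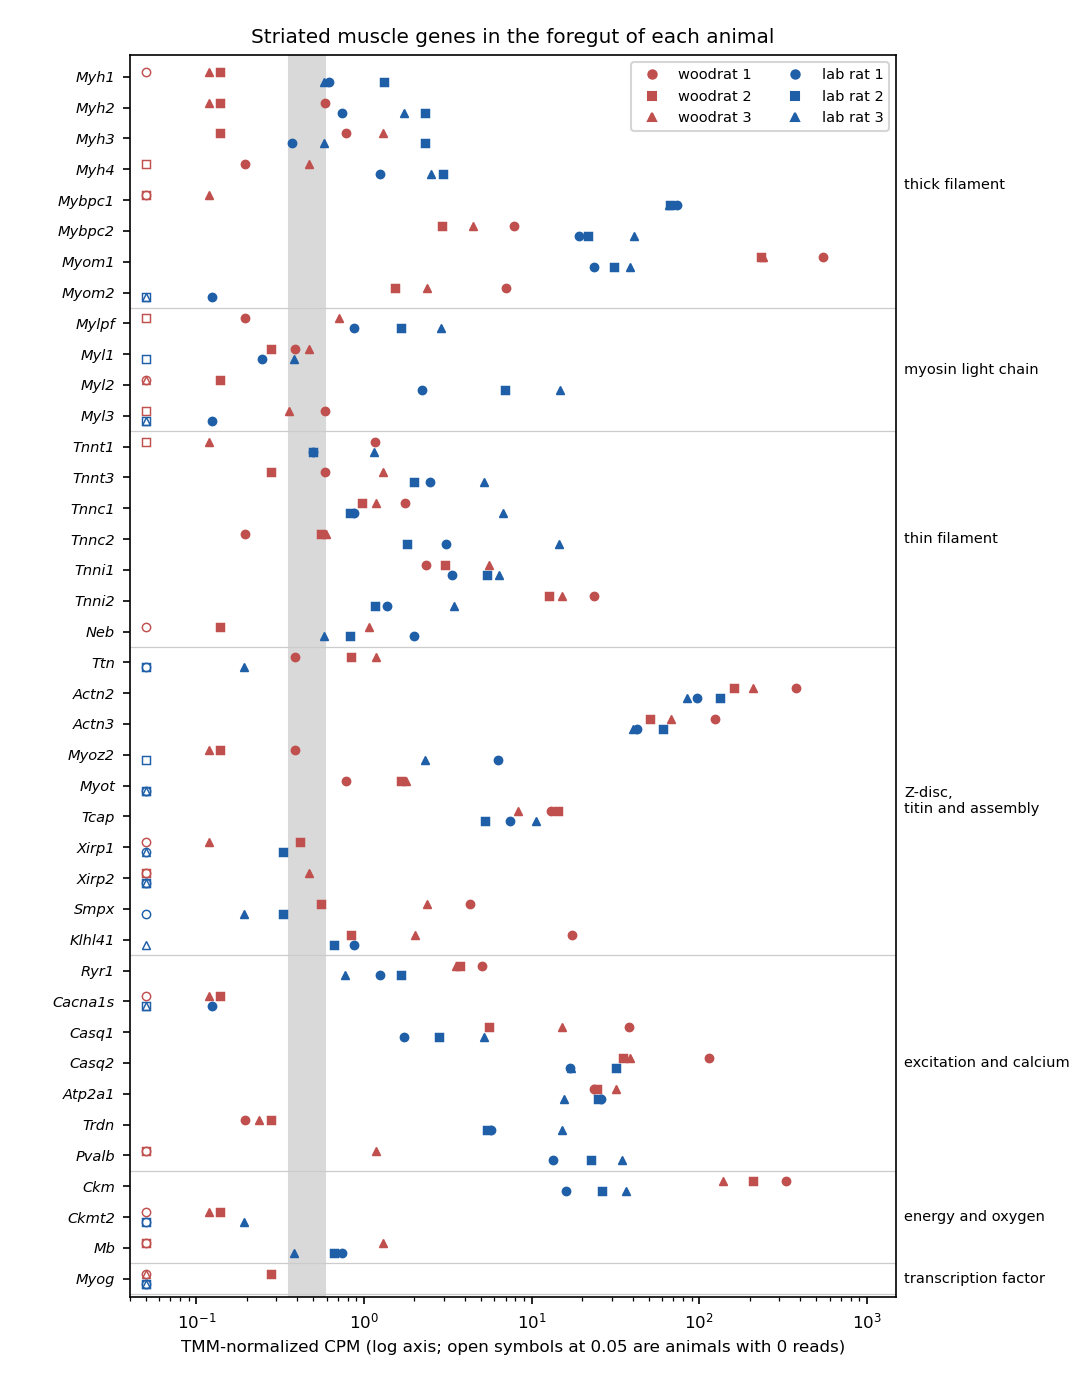
TMM-normalized CPM (log axis) of the 40 striated muscle genes in 3 woodrats (red) and 3 lab rats (blue), grouped by role. Each point is 1 animal, open symbols drawn at 0.05 are animals with 0 reads, and the grey band spans the CPM of 3 reads in the 6 libraries (0.355 to 0.585). Mybpc1 lies between 66.0 and 73.6 CPM in lab rats and at or below 0.118 CPM in woodrats, while Myom1 and Ckm lie higher in woodrats.

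Mybpc1 (ENSMUSG00000020061.16) encodes the slow skeletal form of myosin binding protein C, which binds myosin along the thick filament. Lab rats 1, 2 and 3 had 594, 407 and 343 reads of it, against 0, 0 and 1 in woodrats 1, 2 and 3. The woodrats were under the floor and the lab rats far above it, with no overlap. In CPM the lab rats had 73.6, 67.2 and 66.0, or 69.0 ± 4.10 (SD, n = 3). The log2 fold change was -10.02 (SE 0.51, FDR = 7.29e-05, edgeR quasi-likelihood test), the fourth lowest of all 12603 genes tested and the third by p-value. Mybpc1 passed the filter in lab rats only, and the paper had already given it among its strongest differences. Its rank and FDR therefore describe the gene and are no separate evidence. As the woodrats held 1 read in all, the pooled ratio was 1446 with a 95% exact binomial interval from 259 to 57175. The SE of 0.51 understates this uncertainty, and DESeq2 gave an SE of 1.22.

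Mybpc2, the fast skeletal form of the same protein, was read in both species. It had 7.80, 2.91 and 4.50 CPM in the woodrats, against 19.2, 21.8 and 40.6 in the lab rats. All lab rats lay above all woodrats, with lab rat 3 highest. Its log2 fold change was -2.44 (SE 0.46, FDR = 0.00448, edgeR quasi-likelihood test) against -10.02 for Mybpc1. Without woodrat 2, lab rat 2 or lab rat 3 the FDR was 0.0192, 0.0116 or 0.0160, past the threshold no longer.

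The myomesins, which cross-link thick filaments at the M-band in the middle of the sarcomere, went the other way. Myom1 had 548, 234 and 240.4 CPM in woodrats 1, 2 and 3 and 23.4, 30.9 and 38.7 CPM in the lab rats. Every woodrat exceeded every lab rat, with woodrat 1 highest. The log2 fold change was 3.46 (SE 0.42, FDR = 0.000965, edgeR quasi-likelihood test), and it stayed between 2.94 and 3.66 when each animal was left out in turn. Myom2, the form of fast skeletal and cardiac muscle, had 36, 11 and 20 reads in woodrats, against 1, 0 and 0 in lab rats. The lab rats were under the floor and the woodrats above it. Its log2 fold change was 5.67 (SE 1.05, FDR = 0.00424), with a pooled ratio of 62.3 (95% exact binomial interval 10.8 to 2495). When lab rat 1, 2 or 3 was left out, the FDR of Myom2 was 0.0168, 0.0173 or 0.0232.

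Sarcomeric myosin heavy chains, the motors of the thick filament, were few in every animal. The fast chain Myh4 had 1, 0 and 4 reads in woodrats, against 10, 18 and 13 in lab rats (log2 fold change -3.13, SE 0.78, FDR = 0.0147, edgeR quasi-likelihood test). All lab rats were above all woodrats, but the call missed the threshold, which it passed without woodrat 3 (FDR = 0.00910). The other fast chains, Myh1 and Myh2, were not tested and had between 3 and 14 reads in each lab rat and between 0 and 3 in each woodrat. Embryonic Myh3 had 4, 1 and 11 reads in woodrats, against 3, 14 and 3 in lab rats, which overlapped. Reads of these chains cannot always be divided between such similar genes, and their split is uncertain. With Myh1, Myh2, Myh3 and Myh4 summed to 1 entry there were 28 woodrat and 106 lab rat reads (log2 fold change -2.09, SE 0.62, FDR = 0.0280).

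Of the myosin light chains, which sit on the neck of the heavy chain, Myl2 was called. Myl2, the regulatory light chain of slow skeletal and ventricular muscle, had 0, 1 and 0 reads in woodrats, against 18, 42 and 77 in lab rats. The woodrats were under the floor, and the lab rats differed among themselves 6.64-fold in CPM. The log2 fold change was -6.89 (SE 1.10, FDR = 0.00249, edgeR quasi-likelihood test), with a pooled ratio of 147 (95% exact binomial interval 26.0 to 5866). Without woodrat 2 its FDR was 0.0134. Mylpf, the fast regulatory chain, had 1, 0 and 6 reads in woodrats, against 7, 10 and 15 in lab rats. The essential light chains Myl1 (fast) and Myl3 (slow and ventricular) had at most 4 reads in any animal. These last 3 genes were not tested.

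Of the tested troponin subunits in the list only Tnni2 was called. Tnni2, the fast inhibitory subunit, had 23.6, 12.8 and 15.1 CPM in woodrats, against 1.36, 1.16 and 3.46 in lab rats. Every woodrat was above every lab rat, and the log2 fold change was 3.13 (SE 0.49, FDR = 0.00234, edgeR quasi-likelihood test). Without lab rat 1 or lab rat 2 its FDR was 0.0120 or 0.0111. Its fast partners had lower values in woodrats. Tnnc2, the fast calcium-binding subunit, had 1, 4 and 5 reads in woodrats, against 25, 11 and 76 in lab rats (log2 fold change -3.72, SE 0.90, FDR = 0.0129). Tnnt3, the fast tropomyosin-binding subunit, had 3, 2 and 11 reads in woodrats, against 20, 12 and 27 in lab rats (log2 fold change -2.06, SE 0.64, FDR = 0.0321). For both, all lab rats were above all woodrats in CPM, but neither passed the threshold. With lab rat 2 left out Tnnc2 passed it, at an FDR of 0.00996, whereas without lab rat 3 its log2 fold change was -2.36 (FDR = 0.0235).

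The slow troponins overlapped between the species or were not tested. Tnni1 had 2.34, 3.05 and 5.56 CPM in woodrats, against 3.35, 5.45 and 6.35 in lab rats (log2 fold change -0.43, SE 0.45, FDR = 0.465, edgeR quasi-likelihood test). Tnnc1, shared by slow and cardiac muscle, had 9, 7 and 10 reads in woodrats, against 7, 5 and 35 in lab rats (log2 fold change -1.07, SE 0.84, FDR = 0.334). Lab rat 3 set this sign, since without it the log2 fold change of Tnnc1 was 0.58 (FDR = 0.392). Tnnt1 (0 to 6 reads per animal) and the thin filament ruler nebulin, Neb (0 to 16 reads), were not tested. The plot of the troponins by animal shows the opposite placing of Tnni2 and its fast partners.

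**Figure D2:**
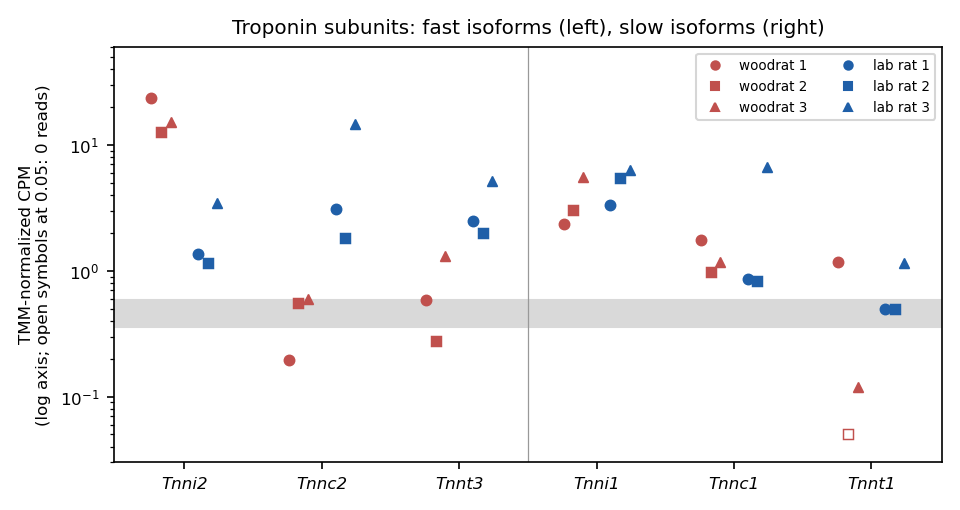
TMM-normalized CPM (log axis) of the fast (left) and slow (right) troponin subunits in 3 woodrats (red) and 3 lab rats (blue), 1 point per animal, with the CPM of 3 reads as a grey band. Tnni2 is higher in all woodrats (12.8 to 23.6 CPM), Tnnc2 and Tnnt3 are higher in all lab rats, and the slow subunits overlap.

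At the Z-disc, which anchors the thin filaments, no gene was called by edgeR, although Actn2 had an unadjusted p under 0.05 and was called by DESeq2 (FDR = 0.00662). The alpha-actinins Actn2 and Actn3 cross-link actin there, and both were read in every animal. Actn2 had 378, 162 and 210.5 CPM in woodrats, against 96.8, 134 and 84.1 in lab rats. The species did not overlap, but the log2 fold change of 1.25 (SE 0.36, FDR = 0.0246, edgeR quasi-likelihood test) was not past the threshold. Actn3 had 51.2 to 125 CPM in woodrats, against 40.4 to 60.6 in lab rats, which overlapped (log2 fold change 0.76, FDR = 0.120). Both genes share stretches of sequence with the non-muscle actinins Actn1 and Actn4, and whether reads of those were counted here was not tested. Tcap, the titin cap, overlapped too, at 8.28 to 14.4 CPM in woodrats, against 5.29 to 10.6 in lab rats (FDR = 0.213).

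The remaining Z-disc and assembly genes were too low to be tested. Titin (Ttn), the molecular spring of the sarcomere, had 2, 6 and 10 reads in woodrats, against 0, 0 and 1 in lab rats, a pooled ratio of 16.7 (95% exact binomial interval 2.64 to 697). Myotilin (Myot), an actin cross-linker, had 4, 12 and 15 reads in woodrats and none in any lab rat. Against 3 reads over the lab rats, this was at least 9.60-fold higher in woodrats. Smpx, a small cytoskeletal protein of striated muscle, had 22, 4 and 20 reads in woodrats, against 0, 2 and 1 in lab rats, a pooled ratio of 14.2 (4.58 to 71.6). Klhl41, which stabilizes nebulin, had 89 reads in woodrat 1 but 6 and 17 in the other woodrats, and 7, 4 and 0 in lab rats. Myoz2, a calsarcin of slow and cardiac muscle, had 51, 0 and 12 reads in lab rats and at most 2 in any woodrat, so 1 lab rat carried most of them. Xirp1 and Xirp2, actin-binding repeat proteins, had at most 4 reads in any animal.

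Among the calcium handling genes, triadin and parvalbumin were higher in lab rats. Trdn, which ties calsequestrin to the ryanodine receptor, had 1, 2 and 2 reads in woodrats, against 46, 33 and 79 in lab rats. The log2 fold change was -5.08 (SE 0.65, FDR = 0.00112, edgeR quasi-likelihood test), with all lab rats above all woodrats. Pvalb, a calcium buffer of fast fibres and of some neurons, had 0, 0 and 10 reads in woodrats, against 108, 137 and 180 in lab rats. This gave a log2 fold change of -5.63 (SE 0.89, FDR = 0.00244). All woodrat reads of Pvalb came from woodrat 3, without which the fitted log2 fold change was -10.22, a value that depends on the prior count since the other woodrats had 0 reads, and without lab rat 3 the FDR was 0.0128.

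The partners of triadin lay higher in woodrats without passing the threshold. Casq1, the skeletal calcium store protein, had 195, 40 and 129 reads in woodrats, against 14, 17 and 27 in lab rats. Casq2, its cardiac form, had 588, 253 and 326 reads in woodrats, against 137, 194 and 89 in lab rats. Their log2 fold changes were 2.61 (SE 0.71, FDR = 0.0203, edgeR quasi-likelihood test) and 1.51 (SE 0.50, FDR = 0.0413), and in both genes all woodrats were above all lab rats. Woodrat 1 was the highest in both, and without it the log2 fold changes were 1.71 for Casq1 (FDR = 0.0513) and 0.74 for Casq2 (FDR = 0.132). Ryr1, the skeletal calcium release channel, had 26, 27 and 30 reads in woodrats, against 10, 10 and 4 in lab rats (log2 fold change 1.72, SE 0.43, FDR = 0.0151). Atp2a1, the fast fibre calcium pump, had 26.7 ± 4.64 CPM (SD, n = 3) in woodrats, against 22.1 ± 5.66 CPM (SD, n = 3) in lab rats, with overlap and a log2 fold change of 0.27 (SE 0.29, FDR = 0.478). The related pump gene Atp2a2 had mean CPM of 137 in woodrats and 125 in lab rats. Whether reads of Atp2a2 were counted as Atp2a1 was not tested. The voltage sensor of the skeletal channel, Cacna1s, had at most 1 read in any animal.

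Ckm, the muscle creatine kinase that regenerates ATP at the sarcomere, had 330.1, 209.6 and 139.5 CPM in woodrats, against 16.1, 26.3 and 36.4 in lab rats. Every woodrat was above every lab rat. The log2 fold change was 3.11 (SE 0.42, FDR = 0.00141, edgeR quasi-likelihood test) and lay between 2.74 and 3.42 with each animal left out. The related creatine kinase gene Ckb had 2939, 1463 and 1382 CPM in woodrats, against 466, 626 and 893 in lab rats. Whether reads of Ckb were counted as Ckm was not tested. The other energy genes of the list were near the floor. Ckmt2, the mitochondrial kinase of striated muscle, had at most 1 read in any animal, and myoglobin (Mb), the oxygen store of red fibres, had 0, 0 and 11 reads in woodrats, against 6, 4 and 2 in lab rats. Myogenin (Myog), a transcription factor of muscle differentiation, had 2 reads in woodrat 2 and none elsewhere.

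Within the lab rats, Mybpc1 varied less in TMM-normalized CPM than the genes called with it and was highest in another animal. Its highest animal exceeded its lowest by 1.12-fold, with lab rat 1 highest. Mybpc2, Pvalb, Trdn and Myl2 spread over 2.11-, 2.59-, 2.79- and 6.64-fold, and each was highest in lab rat 3. Tnnc1 and Tnnc2 were also highest in lab rat 3, with spreads of 8.15- and 8.05-fold. All these spreads depend on the TMM factors, which were 1.10, 1.11 and 0.837 in lab rats 1, 2 and 3. The lower factor raises the CPM of lab rat 3. This narrows the spread of Mybpc1, which was lowest in lab rat 3, and widens that of genes highest there. The spreads under another scaling were not computed. Over the 21 tested genes lab rat 3 was the highest lab rat in 13 and woodrat 1 the highest woodrat in 11. How often each animal was highest over all genes tested was not counted. A group of 7 core genes (Ttn, Neb, Myh1, Myh2, Myh4, Mylpf and Myl1), chosen after their values were seen, summed to 9, 11 and 35 reads in woodrats, against 46, 55 and 46 in lab rats. Each of these 7 genes had at most 2.97 CPM in any animal.

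The 8 smooth muscle marker genes (Myh11, Cnn1, Des, Tagln, Mylk, Myl9, Lmod1 and Synpo2), all in the files, moved with the genes that were higher in woodrats. They summed to 122777, 59519 and 40232 CPM in woodrats and to 10762, 18154 and 19542 CPM in lab rats. Woodrat 1 had the highest smooth muscle sum and the lowest squamous epithelium sum of the woodrats. It was also the highest woodrat in all 4 genes called higher in woodrats. A part of tissue composition in this order was not tested. In these bulk samples fewer cells of a type and less RNA per cell cannot be told apart. As a description, each striated gene was also set against the smooth muscle sum, as CPM per 1000 CPM of the smooth muscle genes. Myom1 then had 4.79 ± 1.06 in woodrats and 1.95 ± 0.239 in lab rats, and Ckm had 3.23 ± 0.466 and 1.60 ± 0.226 (SD, n = 3). In all 4 genes called higher in woodrats every woodrat remained above every lab rat on this scale, at a smaller distance than in CPM. For Tnni2 the lowest woodrat had 0.192 and the highest lab rat 0.177. These 4 genes were picked for being higher in woodrats. Because the sum was higher in every woodrat, the division moves every gene toward lab rats, so an order that favours lab rats on this scale is no result about a gene. The means of Actn2, Casq2 and Ryr1 changed order with overlap between the animals, those of Actn3, Tcap and Atp2a1 changed order without overlap, and Casq1 overlapped.

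Of the other marker lists, the 5 endothelial genes were higher in every lab rat, at 108 to 115 CPM against 50.5 to 97.3 CPM in woodrats. Their part in the lab rat genes was not tested. Fibroblast genes summed to 1053 to 2530 CPM in woodrats, against 2001 to 2578 in lab rats, and neuron and glia genes to 25.8 to 36.9 and 23.1 to 30.1 CPM, which overlapped. The leukocyte sum was 5.07 to 19.8 CPM in woodrats, against 17.1 to 31.1 in lab rats, and the adipocyte sum was at most 4.71 CPM in any animal.

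**Figure D3:**
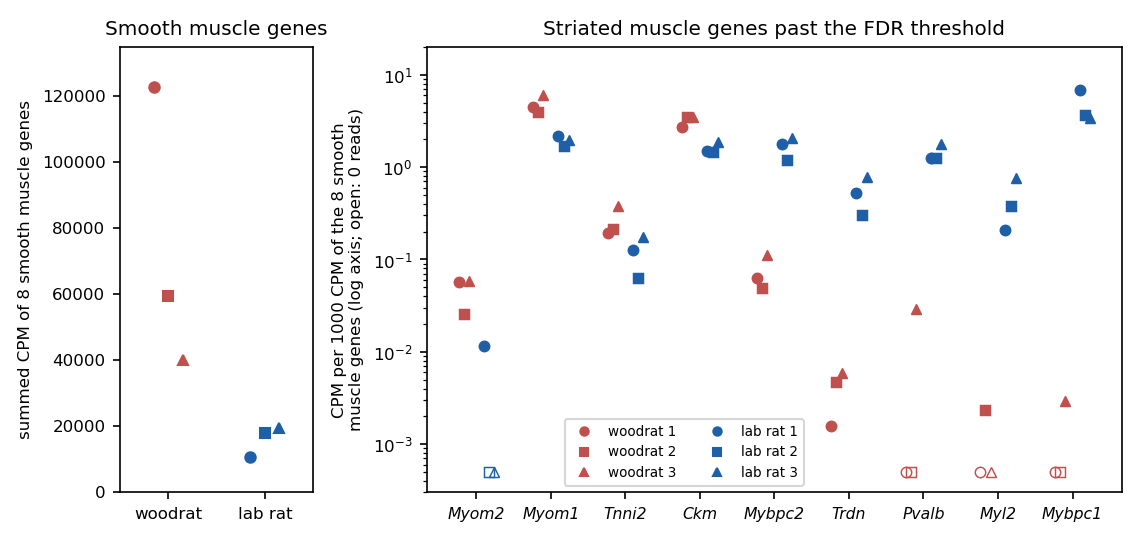
Left, summed CPM of 8 smooth muscle genes in each animal (linear axis from 0). Right, CPM of the 9 striated muscle genes past the FDR threshold per 1000 CPM of those smooth muscle genes (log axis), 1 point per animal, open symbols for 0 reads. On this scale Myom1 and Ckm remain above the lab rats in all 3 woodrats, while the division moves every gene toward lab rats.

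Smooth muscle and non-muscle genes with the same kinds of role were higher in woodrats wherever they were called. Of 27 such genes tested, 8 were called higher in woodrats and none in lab rats by edgeR. The shares over all genes tested were 10.3% and 9.71%. All but 3 (Actn4, Itpr1 and Ckmt1) had a positive log2 fold change, and the median of the list was 1.70. The list was written with earlier results known and holds the smooth muscle marker genes above, so its counts add no separate evidence. Ckmt1, the mitochondrial creatine kinase of other tissues, was higher in every lab rat (-2.03, SE 0.50, FDR = 0.0135) without passing the threshold, the 1 such gene with an unadjusted p under 0.05, and DESeq2 called 1 gene higher in lab rats. The largest called changes were those of Myocd, a coactivator of smooth and cardiac muscle genes (3.56, SE 0.38, FDR = 0.000649), Cald1, caldesmon (3.38, FDR = 0.00197) and Synpo2, an actin-binding protein (3.15, FDR = 0.00207, edgeR quasi-likelihood test). Side by side with the striated isoforms, Myh11 had a log2 fold change of 2.43 (FDR = 0.0102) where Myh4 had -3.13. Likewise Myl9 had 1.70 (FDR = 0.0317) where Myl2 had -6.89. Of these genes only Myl2 passed the threshold. The pairs were chosen with results known and do not stand for all striated isoforms. Ckb, the brain type creatine kinase, had 1.54 (FDR = 0.0213) and Actn1 had 1.65 (FDR = 0.0172), in the same direction as Ckm and Actn2. Cacna1c, the calcium channel of smooth and cardiac muscle, had 2.75 (FDR = 0.00151), and Ryr3 had 1.56 (FDR = 0.0111). The pump Atp2a2 had 0.13 (FDR = 0.751) and the light chain Myl6 had 0.58 (FDR = 0.416), both with overlap.

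**Figure D4:**
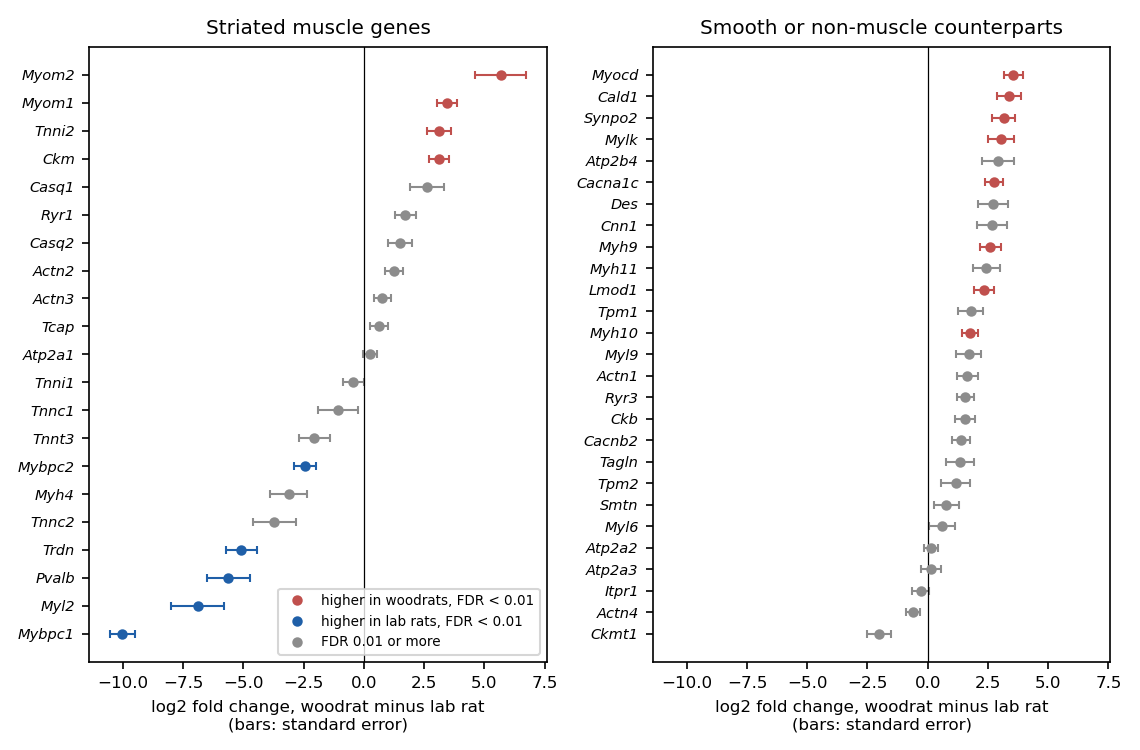
log2 fold changes (woodrat minus lab rat, with standard errors) of the 21 tested striated muscle genes (left) and of 27 smooth muscle or non-muscle counterparts (right), from the edgeR fit over all genes. Striated genes run from -10.02 (Mybpc1) to 5.67 (Myom2) with calls on both sides of 0, whereas all 8 called counterparts are above 0. The counterparts include the smooth muscle marker genes.

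Further skeletal muscle genes outside the list were also divided. Of 50 on a second list, 40 were in the files and 19 were tested. Of these, 6 were called higher in woodrats and 3 in lab rats, with a median log2 fold change of 1.17. The shares over all 12603 genes tested were 10.3% and 9.71%. A gene that passed the filter in 1 species only had to differ. No gene without woodrat reads was counted, so the split and the median can lean toward woodrats and do not support a direction. The largest in woodrats were Cmya5, a Z-disc associated protein with 44, 66 and 59 reads in woodrats, against 0, 1 and 0 in lab rats (log2 fold change 6.86, SE 0.70, FDR = 0.000551, edgeR quasi-likelihood test, pooled ratio 157 with a 95% exact binomial interval from 27.8 to 6238), Cox6a2, a heart and muscle subunit of cytochrome oxidase (4.18, FDR = 0.00610), and Cav3, the muscle caveolin (2.82, FDR = 0.00485). In lab rats they were Apobec2, a striated muscle member of a deaminase family (-4.31, FDR = 0.00366), and Tmod4, which caps thin filaments (-3.94, FDR = 0.00463). Cmya5, Apobec2 and Tmod4 each passed the filter in 1 species only. All 3 calls higher in lab rats were lost without woodrat 2, lab rat 2 or lab rat 3, and those higher in woodrats fell to 2 without lab rat 1 or lab rat 2. The skeletal actin gene Acta1 was among the paralogs that the study removed before counting and was not analysed here. Fbp2, also on this list, was not analysed here either, and the paper gives it among its strongest differences toward lab rats, as it does Mybpc1.

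Of 18 cardiac muscle genes, 11 were in the files and 6 were tested. Of these, 2 were called higher in woodrats and 1 in lab rats, with a median log2 fold change of 1.40. The shares over all genes tested were 10.3% and 9.71%. The limits set by the filter and by the absence of genes without woodrat reads apply here too. Ryr2, the cardiac release channel, which other muscle also uses, was higher in woodrats with 19.2 ± 7.24 CPM against 0.583 ± 0.253 CPM (SD, n = 3), a log2 fold change of 4.93 (SE 0.49, FDR = 0.000520, edgeR quasi-likelihood test). Hand2, a factor of heart development that is also active in the gut wall, was higher in woodrats too (2.32, FDR = 0.00503). Tnnt2, the cardiac troponin T, was higher in lab rats, with 24, 32 and 9 reads in woodrats, against 166, 158 and 371 in lab rats (-3.56, SE 0.66, FDR = 0.00443). As with Tnnc1 and Tnnc2, lab rat 3 was highest, and the call was lost without it and without woodrat 2. Of the untested heart genes, named after their values were seen, Myh6, the atrial myosin heavy chain, had 9, 7 and 15 reads in woodrats and 0 in every lab rat. Its close paralog Myh7 was not analysed here, and the share of these reads that belongs to each is uncertain. Cardiac troponin I (Tnni3) had 1 read in woodrat 1 and none elsewhere, and the natriuretic peptide gene Nppa had at most 2 reads in any animal.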

How the data were processed

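The foregut RNA of 3 woodrats and 3 lab rats was sequenced from stranded poly(A) libraries. The authors used Trimmomatic for trimming and FLASH to join overlapping mates, aligned the reads to GENCODE mouse coding transcripts with cross_match, removed listed genes with many multiple alignments, and deposited raw counts of uniquely assigned reads per gene, without normalization. Tool versions are not given in the sources used here. The files give no coordinates.

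Genes reaching 1 CPM in 3 or more animals were kept, and species were compared in R 4.3.3 with edgeR 4.0.16 (TMM, earlier quasi-likelihood method, prior count 0.125, Benjamini-Hochberg FDR over all genes tested, threshold 0.01). The SE is the size of the log2 fold change divided by the square root of F. It can understate the uncertainty where 1 species had almost no reads, as for Mybpc1, Myl2 and Myom2. The fit was tested on simulated counts. Alternatives were other filters, scalings and tests, DESeq2 1.42.0, summed Myh paralogs, a replicate block and each animal left out.

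The members and gene lists were chosen with earlier results of these data known. Every member was named, and from the companion lists the 3 genes with the largest called change in each direction and same-role partners (Myh11, Myl6, Myl9, Actn1, Atp2a2, Ryr3, Ckb and Cacna1c). Actn4, Itpr1, Ckmt1, Myh6, Tnni3 and Nppa were named after their values were seen. A gene that the rule picked is not reported here. With 1 library per animal, p-values measure the spread between these animals. No pair of animals of 1 species agreed within sampling noise (chi-square per degree of freedom 10.2 to 122).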

Additional observations from a re-analysis of the deposited data

How the results depend on the processing

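The 9 calls among the striated genes rested on the threshold as follows. Mybpc1, Myom1 and Trdn were past an FDR of 0.01 in every alternative run, and Ckm in every one except the replicate block. At an FDR below 0.05, 8 striated genes were higher in woodrats and 8 in lab rats, and all genes called rose to 2643 and 2383. DESeq2 called 1986 genes higher in woodrats and 1930 in lab rats, and it added Myh4, Tnnc2, Actn2 and Casq1 to the striated calls. Total counts alone left 812 genes higher in woodrats. Of the counterpart genes, 18 were higher in woodrats and 1 in lab rats both in DESeq2 and at an FDR below 0.05, and 13 were higher in woodrats without a filter, where Myot (log2 fold change 6.29, FDR = 0.00627) and Tnnc2 (FDR = 0.00975) joined the striated calls. The filter at 5 CPM left 0 further skeletal genes higher in lab rats and removed Myom2 and Myl2 from the fit. Among these fits the only change of direction of a striated gene was that of Tnnc1, whose log2 fold change ran from -1.53 without lab rat 1 to 0.58 without lab rat 3.

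The replicate numbers of the labels did not pair the animals, since same-numbered animals deviated from their species means with correlations of -0.289, -0.0881 and -0.279. With the replicate block, 373 genes were called higher in woodrats and 343 in lab rats. The block left 2 striated genes higher in woodrats and 4 in lab rats, 2 further skeletal genes in woodrats and 0 in lab rats, 1 cardiac gene in woodrats and 0 in lab rats, and 4 counterparts in woodrats. Under the block the FDR was 0.0176 for Mybpc2, 0.0110 for Tnni2 and 0.0118 for Ckm.

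With each animal left out in turn, between 2 and 4 striated genes were called higher in woodrats and between 3 and 6 in lab rats. All genes called ranged from 393 to 1357 and from 459 to 1269. Further skeletal genes ranged from 2 to 7 and from 0 to 3, cardiac genes from 1 to 2 and from 0 to 1, and counterparts from 2 to 15 and from 0 to 1, each in woodrats and in lab rats. Over all genes the highest counts came without woodrat 3, and the lowest without lab rat 1 (woodrats) and woodrat 2 (lab rats). The cause of these changes was not tested, and the smaller number of animals was not separated from which animal was removed.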

Other observations

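Some further genes of heart and skeletal muscle were too low to be tested and were picked after their values were seen. Stac3, an adaptor of the skeletal calcium channel, had 7, 13 and 5 reads in woodrats and 0, 0 and 1 in lab rats. Gata4, a transcription factor of heart and gut, had 3, 4 and 0 reads in woodrats and 0 in every lab rat. Other untested genes leaned the other way. Trim63 had 1, 1 and 0 reads in woodrats and 6, 4 and 7 in lab rats. Lmod2 had 2, 0 and 2 reads in woodrats and 7, 5 and 4 in lab rats. The files held no gene without woodrat reads, so full absence in woodrats could not be seen.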
